A study of Homo sapiens with 8 samples.

Results

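The enzymes of glycolysis, the pentose phosphate pathway and the citrate cycle, with the pyruvate dehydrogenase complex and pyruvate carboxylase that join them, were followed in ribosome footprint counts of 293T cells. A list of 39 genes was taken by symbol, and 36 of them were measured, among 17179 gene symbols in all. They were 15 of 17 glycolytic genes, all 5 genes of pyruvate entry into mitochondria, 13 of 14 genes of the citrate cycle and its cytosolic isozymes, and all 3 pentose phosphate genes. PFKL, ALDOA and SUCLA2 are not analysed here. Each of the 36 was counted on 1 Ensembl transcript, and all 36 passed the filter on low counts.

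Ribosome profiling sequences mRNA fragments sheltered by ribosomes during nuclease digestion, and a gene's count therefore measures its footprints and not enzyme activity. The line is derived from human embryonic kidney, and the 8 libraries form 4 groups of 2. The shRNA arm holds cells given shNBD1, which is a non-cleaving shRNA, and cells given an shRNA control. The inhibitor arm holds cells given miRNA inhibitors and cells given a negative control for them. All groups were grown in high-glucose DMEM with serum, streptomycin and penicillin, and lysed in polysome buffer with 100 µg/ml cycloheximide. Which miRNAs were inhibited, how the agents were delivered and how long the cells were treated is not stated in these sources. Without matched RNA libraries, a change in footprints can come from mRNA level, translation or both.

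Glycolysis splits glucose into pyruvate in the cytosol, and its early kinases, hexokinase and phosphofructokinase, are its main points of control. Lactate dehydrogenase turns pyruvate into lactate, while the pyruvate dehydrogenase complex turns it into acetyl-CoA, which the citrate cycle oxidises in mitochondria. The pentose phosphate pathway draws glucose 6-phosphate into NADPH and ribose. Several steps have isozymes from separate genes that differ in tissue, compartment or regulation, and proliferating cell lines commonly run glycolysis at a high rate even with oxygen present.

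Total counts ranged from 11218980 to 19854218 per library, and the 36 enzymes held between 220 counts (ALDOC in an inhibitor library) and 94293 counts (GAPDH in an inhibitor control library). Values are CPM, a library's counts scaled to a fixed total, on library sizes scaled by TMM, a trimmed mean of ratios. The marker values alone are CPM on total counts without TMM. Of 9 markers of the line, 7 averaged at least 1 CPM over the libraries, with KRT8 at 1336 CPM. NEFL and LHX1 were set at 0 in every library, where a gene without reads cannot be told from a gene not listed. Their sum was 8286 and 8654 CPM with shNBD1, against 5412 and 5427 CPM in the shRNA control, mostly through VIM at 5859 and 6152 CPM with shNBD1 and 3601 and 3635 CPM in the control, and it was 5252 and 5387 CPM with the inhibitors, against 4746 and 5589 CPM in the inhibitor control. Of 11 markers of other cells, 6 averaged under 1 CPM, among them PTPRC and ALB. Their summed level, mostly ACTA2, was 379 and 381 CPM with shNBD1 and 339 and 369 CPM in the shRNA control, and 429 and 417 CPM with the inhibitors against 565 and 516 CPM in the inhibitor control, while the macrophage marker CD68 was at 26.8 and 26.4 CPM with shNBD1 and 38.6 and 39 CPM in the shRNA control. The part of these markers in the results was not tested. A row named for an NBD1 reporter stood at 7039.6 and 7233 CPM with shNBD1 and 9129 and 9082 CPM in the shRNA control (-0.35 ± 0.07 on the log2 scale, adjusted p = 0.00527). Replicates of the 36 enzymes lay close in the shRNA arm and less so in the inhibitor arm. Their SD between replicates on the log2 scale was 0.0474 with shNBD1 and 0.0475 in its control, against 0.142 with the inhibitors and 0.113 in their control. Whether replicates are separate cultures is not stated in the labels, and the spread between libraries behind each p-value may be technical.

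With shNBD1, the early kinases HK2 and PFKP rose, and DLD, IDH1, IDH3G and FH of the mitochondrial steps and their cytosolic branch fell. These were 2 that rose and 4 that fell of 36, or 6 called, against 18.3% of all 13306 genes called in either direction, 9.18% higher and 9.15% lower. The share among the enzymes was thus close to the background, and their median log2 fold change was -0.02, beside 0.00 for all genes. By pathway the medians were 0.06 for glycolysis, -0.03 for pyruvate entry, -0.05 for the citrate cycle and 0.11 for the pentose phosphate enzymes. Summed over 36 genes the footprints were almost level, at 22227 ± 92.9 CPM with shNBD1 and 22460.2 ± 97.4 CPM in the control (mean ± SD, n = 2 each). The sum of glycolytic genes was 18099.6 ± 84.0 CPM with shNBD1 and 18220.1 ± 64.6 CPM in the control. For the citrate cycle it was 2401 ± 40.5 CPM with shNBD1 and 2591 ± 11.6 CPM in the control, with both shNBD1 libraries below both controls. Most of that gap lay in the cytosolic isozymes MDH1, which was not called and averaged 685 ± 27.9 CPM with shNBD1 and 769 ± 9.74 CPM in the control, and IDH1, at 86.8 ± 2.02 CPM with shNBD1 and 160.2 ± 1.57 CPM in the control. Leaving out any 1 library of this comparison left HK2, IDH1 and FH as the 3 enzymes called, while leaving out 1 library of the inhibitor arm gave 10 or 11 calls.

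**Figure D1:**
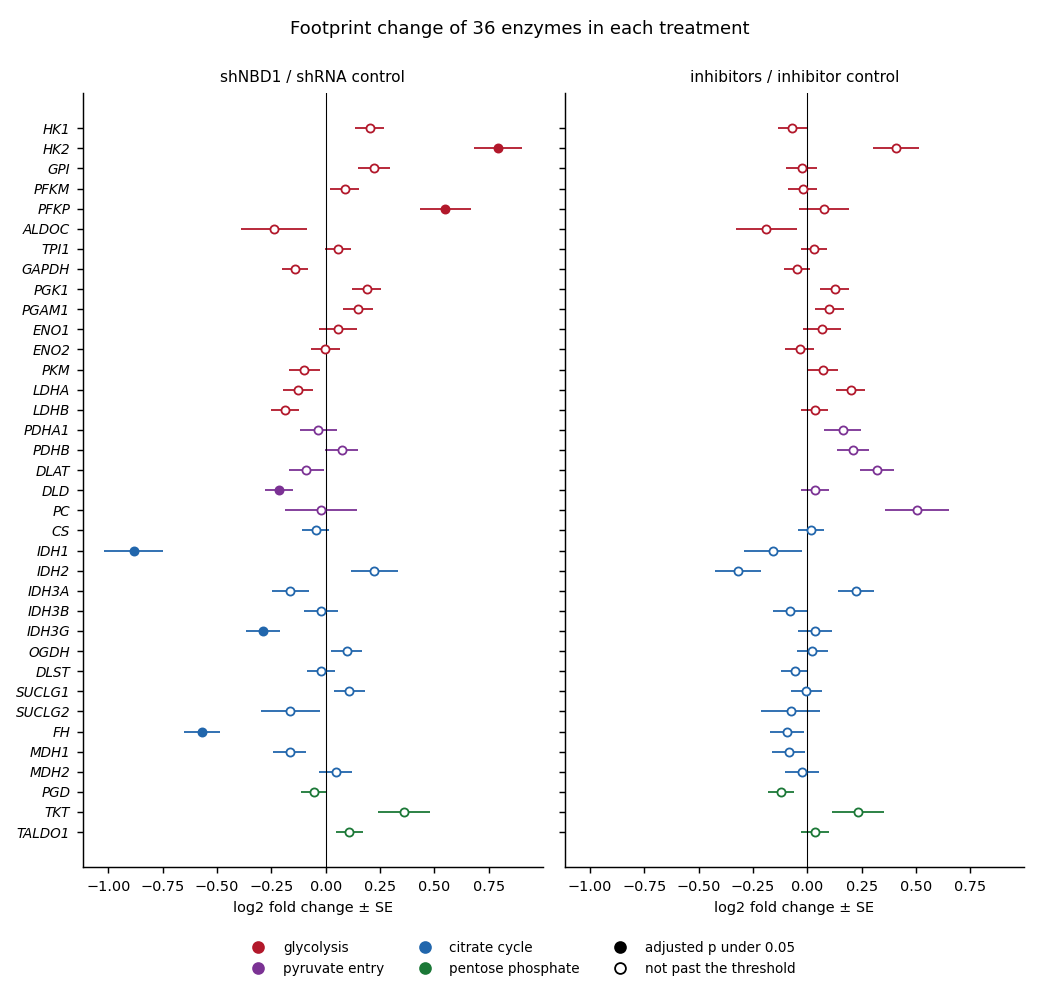
Log2 fold change with its SE of footprints of 36 enzymes (rows, in pathway order) for shNBD1 over shRNA control (left) and inhibitors over inhibitor control (right), 2 libraries per group, colours by pathway. Filled points passed an adjusted p of 0.05: HK2, PFKP, DLD, IDH1, IDH3G and FH on the left and none on the right.

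HK2, the inducible hexokinase that binds the outer mitochondrial membrane, had 51.8 and 52.7 CPM with shNBD1, against 32.3 and 27.9 CPM in the shRNA control. Its libraries did not overlap between the groups, and the log2 fold change was 0.79 ± 0.11 (SE, adjusted p = 0.00122 in edgeR's quasi-likelihood test). Separation of this kind was usual with shNBD1. Among the enzymes, only ENO2, PDHA1, PDHB, PC and DLST had overlapping groups. The share over all genes was not computed, so non-overlap alone does not mark a change. HK1, the hexokinase found in most tissues, had 236 and 223 CPM with shNBD1 and 203 and 195 CPM in the control. Both HK1 values with shNBD1 were above both controls, but the change of 0.20 ± 0.07 did not pass (adjusted p = 0.0572). GPI, the next enzyme of the path, behaved in the same way at 0.22 ± 0.07 (adjusted p = 0.0554), with 916 and 942 CPM with shNBD1 and 785 and 807 CPM in the control.

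PFKP (chromosome 10, 3067548 to 3136805), the platelet-type phosphofructokinase, stood at 662 and 674 CPM with shNBD1 and 459 and 453 CPM in the shRNA control. The log2 fold change was 0.55 ± 0.12 (adjusted p = 0.00935), and the groups lay far apart against the spread within each. PFKM, the muscle-type isozyme, had 105 and 100.2 CPM with shNBD1 and 95.3 and 98.2 CPM in the control, a change of 0.09 ± 0.07 that did not pass. The call of PFKP was lost in the 4 fits that left out a library of this comparison, where the adjusted p reached 0.0831, while its log2 fold change lay between 0.542 and 0.564 over all 16 alternatives. HK2 kept its call in each of the 16.

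None of the other glycolytic enzymes passed with shNBD1. In pathway order, the log2 fold changes were -0.24 for the brain-type aldolase ALDOC, 0.06 for the triose isomerase TPI1, -0.14 for the triose dehydrogenase GAPDH and 0.19 for the kinase PGK1. Further down they were 0.15 for the mutase PGAM1, 0.06 for the ubiquitous enolase ENO1, -0.00072 for the neuronal enolase ENO2, -0.10 for pyruvate kinase, -0.13 for LDHA and -0.19 for LDHB. GAPDH, a common reference gene, had 4384 and 4428 CPM with shNBD1 and 4828 and 4894 CPM in the control, without overlap (adjusted p = 0.127). PGK1 had 744 and 718 CPM with shNBD1 and 632 and 651 CPM in the control (adjusted p = 0.075). In LDHB the order was the opposite, with 805 and 785 CPM with shNBD1 and 913 and 897 CPM in the control (adjusted p = 0.0642). Values along the lower end of the path therefore lay on both sides of 0. Several of these genes have near copies in the genome. The RefSeq table lists 65 pseudogenes named for GAPDH, 13 for PGAM1, 6 for LDHA, 5 for PKM and 4 each for TPI1 and ENO1. It also lists 1 each for HK2, IDH1 and FH, and some for other enzymes. The assignment of reads that match several copies is not given in the sources used here, so the values of all these genes are uncertain. PGAM4, a retrogene of nearly the same sequence as PGAM1, was listed at 424 and 432 CPM with shNBD1 and 381 and 372 CPM in the control, and the 2 genes may share reads.

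At the entry of pyruvate into mitochondria, DLD (chromosome 7, 107891107 to 107921198) fell. It is the dihydrolipoamide dehydrogenase shared by the pyruvate, oxoglutarate and branched-chain dehydrogenase complexes, and it had 179.8 and 178 CPM with shNBD1 and 210.0 and 205 CPM in the control. The log2 fold change was -0.22 ± 0.06 (adjusted p = 0.0403), and the groups did not overlap, but the call held in 10 of 16 alternatives. The E1 subunits PDHA1 and PDHB, the acetyltransferase DLAT and the anaplerotic PC stood at -0.03, 0.07, -0.09 and -0.02, and none passed.

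In the citrate cycle IDH1, FH and IDH3G fell and no gene rose. IDH1, the cytosolic and peroxisomal isocitrate dehydrogenase that makes NADPH, had 88.2 and 85.4 CPM with shNBD1, against 159 and 161 CPM in the control. The log2 fold change was -0.88 ± 0.14 (adjusted p = 0.00213), which is the largest drop among the 36 enzymes in this comparison. FH, the fumarase, had 54.5 and 51.0 CPM with shNBD1 and 78.8 and 77.7 CPM in the control. It fell by 0.57 ± 0.08 on the log2 scale (adjusted p = 0.00141), and like IDH1 it kept its call in all 16 alternatives. IDH3G (chromosome X, 153785768 to 153794375), the gamma subunit of the NAD-linked isocitrate dehydrogenase, had 67.3 and 70.5 CPM with shNBD1 and 87.0 and 81.1 CPM in the control, and fell by 0.29 ± 0.08 (adjusted p = 0.0298). This call held in 11 of 16 alternatives.

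The partners of the isocitrate enzymes did not pass. IDH3A, the catalytic alpha subunit, stood at -0.16 and IDH3B, the beta subunit, at -0.02, while IDH2, the mitochondrial NADP-linked isozyme, had 108 and 110.2 CPM with shNBD1 and 92.9 and 93.8 CPM in the control (0.22 ± 0.11, adjusted p = 0.179). The groups of IDH2 did not overlap. The other steps did not pass either. Citrate synthase, CS, stood at -0.05 ± 0.06, OGDH at 0.10 ± 0.07 and its partner DLST at -0.02 ± 0.06. Succinyl-CoA ligase stood at 0.11 ± 0.07 for the alpha subunit SUCLG1 and -0.16 ± 0.13 for the GTP-linked beta subunit SUCLG2. The malate dehydrogenases stood at -0.17 ± 0.07 for cytosolic MDH1 and 0.05 ± 0.08 for mitochondrial MDH2.

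Of the pentose phosphate enzymes, TKT, the transketolase, had 420.1 and 449.9 CPM with shNBD1 and 334 and 344 CPM in the control. The groups did not overlap, but the change of 0.36 ± 0.12 missed the threshold (adjusted p = 0.0614). TALDO1, the transaldolase, stood at 0.11 ± 0.06 and PGD, which makes ribulose 5-phosphate and NADPH, at -0.05 ± 0.06. On the 4 libraries of the comparison alone, which have the tighter spread, 19 of 36 enzymes were called, 9 higher and 10 lower, against 41.9% of 12688 genes. TKT, HK1 and GPI were among the 9.

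**Figure D2:**
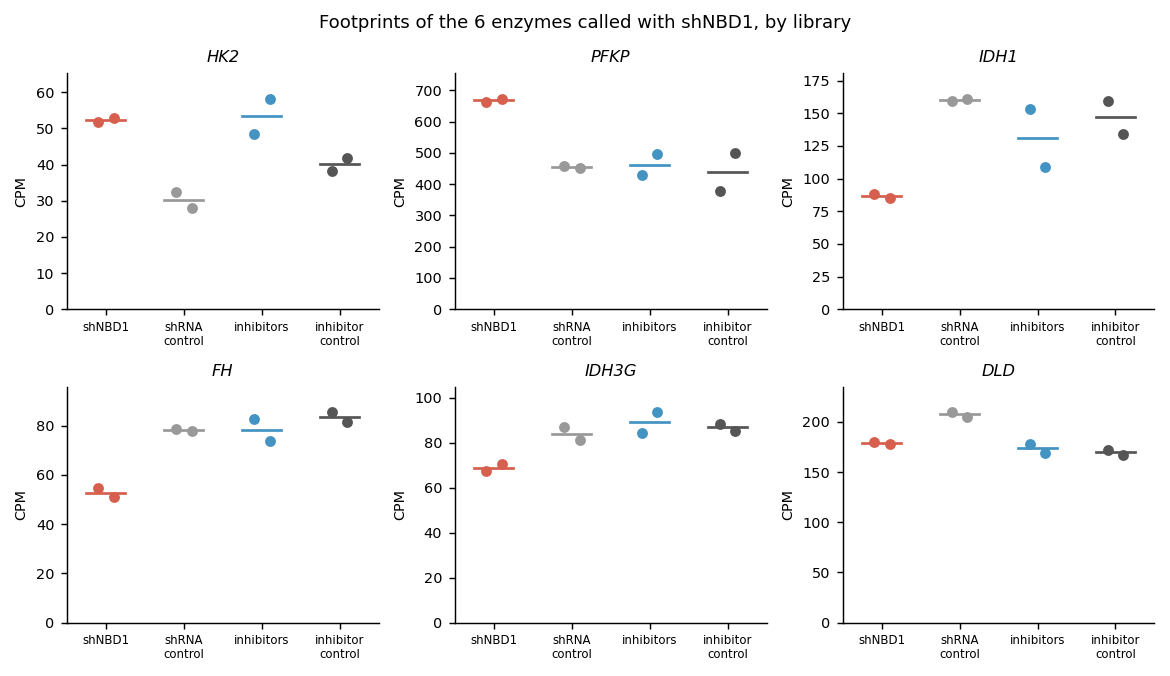
Footprints in CPM (y axis, from 0) of the 6 enzymes called with shNBD1, for each library (points) with the group mean (bar), in shNBD1, shRNA control, inhibitors and inhibitor control. In HK2 and PFKP both shNBD1 points lie above both shRNA control points, and in IDH1, FH, IDH3G and DLD below them.

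HK2 (chromosome 2, 74834127 to 74893359), IDH1 (chromosome 2, 208236227 to 208255071) and FH (chromosome 1, 241497603 to 241519755) were the enzymes that kept their call with shNBD1 in all 16 alternatives, so the 250 bases before their outermost annotated starts are shown (RefSeq, GRCh38.p14, each on the strand of its gene, 5′ to 3′). Capitals mark ACGTG on either strand, a form of the core of the element bound by hypoxia-inducible factors. The other form of that core, GCGTG, was neither marked nor counted, and its letters occur in each window shown.
HK2, chr2:74833877-74834126, plus strand: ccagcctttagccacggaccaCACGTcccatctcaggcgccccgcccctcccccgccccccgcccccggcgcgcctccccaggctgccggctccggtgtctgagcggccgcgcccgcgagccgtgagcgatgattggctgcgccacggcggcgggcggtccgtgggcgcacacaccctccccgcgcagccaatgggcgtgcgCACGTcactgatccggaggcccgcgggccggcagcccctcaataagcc
IDH1, chr2:208255072-208255321, minus strand: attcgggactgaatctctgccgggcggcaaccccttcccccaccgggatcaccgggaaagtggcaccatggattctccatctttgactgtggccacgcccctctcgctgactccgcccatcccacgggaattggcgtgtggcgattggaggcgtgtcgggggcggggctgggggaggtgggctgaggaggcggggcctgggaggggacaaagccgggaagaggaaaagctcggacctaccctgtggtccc
FH, chr1:241519756-241520005, minus strand: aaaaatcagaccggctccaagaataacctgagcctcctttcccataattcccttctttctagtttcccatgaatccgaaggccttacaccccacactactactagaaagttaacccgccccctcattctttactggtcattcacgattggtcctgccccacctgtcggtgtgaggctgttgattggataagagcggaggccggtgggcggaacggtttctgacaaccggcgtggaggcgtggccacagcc
The HK2 window shown holds 2 matches to ACGTG and those shown for IDH1 and FH hold 0. HK2 and IDH1 each have another annotated start, and the window before it holds a match in both genes, while FH has the 1 window. For scale, 18.5% of 35116 such windows of all genes hold the motif, and 17 of 58 windows of the enzymes do (35 of the 36 enzymes had a window, and 16 of the 35 had a match in at least 1). A match is a description of the letters only.

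Genes around these enzymes were read from lists of other members of the pathways. Of 11 pentose phosphate neighbours tested, 4 rose and 3 fell with shNBD1. RPIA, which isomerises ribose 5-phosphate, rose to 34.8 and 31.6 CPM with shNBD1, against 22.1 and 22.3 CPM in the control (0.58 ± 0.09, adjusted p = 0.00272). TIGAR, a p53-induced phosphatase that lowers fructose 2,6-bisphosphate, fell to 34.5 and 31.4 CPM with shNBD1, against 55.0 and 55.8 CPM in the control (-0.75 ± 0.11, adjusted p = 0.0014). SHPK, the sedoheptulokinase, fell by 0.47 ± 0.09, and RBKS, the ribokinase, rose by 0.77 ± 0.24 at under 4 CPM in every library (adjusted p = 0.0485), a call that held in 7 of 15 alternatives.

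Among 12 glucose, lactate and related carriers tested, 2 rose and 1 fell with shNBD1. SLC2A1, the glucose transporter GLUT1, had 195 and 203 CPM with shNBD1 and 135 and 143 CPM in the control, and rose by 0.51 ± 0.11 (adjusted p = 0.0122). SLC2A3, the high-affinity transporter GLUT3, had 34.3 and 32.9 CPM with shNBD1 and 50.7 and 56.7 CPM in the control, and fell by 0.67 ± 0.11 (adjusted p = 0.00269). The 2 glucose transporters thus moved in opposite directions. SLC16A3, the lactate exporter MCT4, rose by 0.95 ± 0.23 at low level, with 2.77 and 3.20 CPM with shNBD1 and 1.53 and 1.56 CPM in the control.

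Of 14 glycolysis neighbours tested, ADPGK, which phosphorylates glucose with ADP, rose by 0.45 ± 0.08, and GPD2, the mitochondrial glycerol 3-phosphate dehydrogenase, fell by 0.46 ± 0.08. Of 23 citrate cycle neighbours, PCK2, the mitochondrial phosphoenolpyruvate carboxykinase, rose by 0.35 ± 0.08, while SDHAF2, an assembly factor of succinate dehydrogenase, fell by 0.44 ± 0.11 and DHTKD1, which acts on oxoadipate, by 0.28 ± 0.08. Of 9 pyruvate dehydrogenase neighbours none passed in edgeR, and 0 had an unadjusted p under 0.05, with PDHX at -0.19 ± 0.09 and the kinase PDK1 at 0.19 ± 0.12. Of 13 hypoxia-induced genes outside the pathways 2 rose and none fell. They were P4HA2, a collagen prolyl hydroxylase, at 0.48 ± 0.06 and NDRG1 at 0.44 ± 0.10, and the median of the 13 was 0.10. Beside the background of 18.3%, the lists thus ranged from 0 of 9 called genes among the pyruvate dehydrogenase neighbours to 7 of 11 among the pentose phosphate neighbours. The lists were chosen with earlier results of these data known, so these shares are a description and no test of a pathway. Of the neighbour genes named as called, RPIA, TIGAR, SLC2A3, GPD2 and P4HA2 kept their calls in all 16 alternatives, and the others lost theirs in some.

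Pairs of genes were compared by the ratio of their counts within a library, which does not depend on library size. They were isozymes, with some exceptions. SUCLG2 to SUCLG1, IDH3G to IDH3B and DLAT to DLD pair subunits of the same enzyme or complex, and PC to PDHA1 pairs different enzymes. Coding lengths were not used, so a ratio shows a shift between groups and not which gene of a pair is the more abundant. The HK2 to HK1 ratio was 0.219 and 0.236 with shNBD1, against 0.159 and 0.143 in the shRNA control. The IDH2 to IDH1 ratio was 1.22 and 1.29 with shNBD1, against 0.584 and 0.581 in the control, the widest shift of the 10 pairs formed in this arm. Among the others, the PFKP to PFKM ratio was 6.29 and 6.72 with shNBD1 and 4.82 and 4.61 in the control. Ratios were lower with the hairpin for SUCLG2 to SUCLG1, at 0.32 and 0.328 with shNBD1 and 0.39 and 0.392 in the control, and for IDH3G to IDH3B, at 0.28 and 0.291 with shNBD1 and 0.352 and 0.334 in the control. The LDHB to LDHA ratio was 1.03 and 1.1 with shNBD1 and 1.11 and 1.11 in the control. The MDH2 to MDH1 ratio was 0.511 and 0.531 with shNBD1 and 0.461 and 0.438 in the control. The groups of the shRNA arm did not overlap in any of these 7 pairs, nor in ENO2 to ENO1 and DLAT to DLD. Of the 10 pairs only PC to PDHA1 overlapped, and the share among other gene pairs was not computed. With 2 libraries against 2, an exact permutation test cannot go below p = 0.333 (two-sided), so no test is given.

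**Figure D3:**
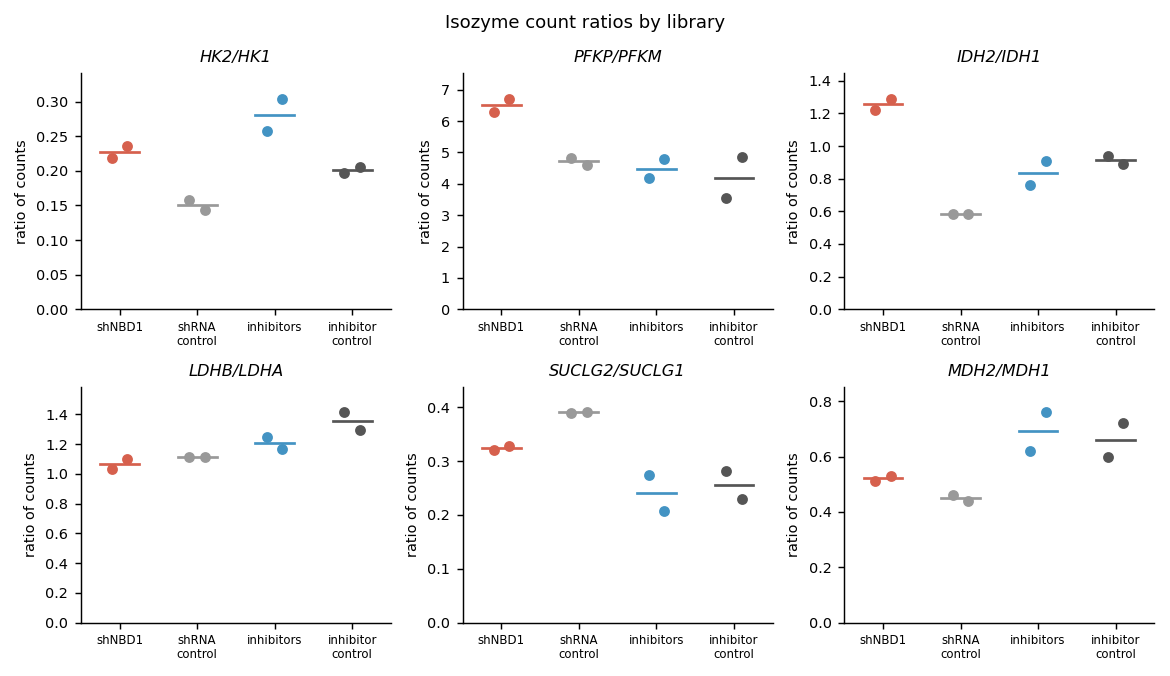
Ratio of raw counts of 6 gene pairs (y axis, from 0) in each library (points) with the group mean (bar), in shNBD1, shRNA control, inhibitors and inhibitor control. The pairs are isozymes, except SUCLG2 to SUCLG1, which are subunits of the same enzyme. The IDH2 to IDH1 ratio lies above 1 in both shNBD1 libraries and below 1 in the other 6, and the HK2 to HK1 ratio is higher in each treatment than in its own control.

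With the miRNA inhibitors no enzyme passed the threshold. Of all genes tested 0.120% were called (16 of 13306, 5 higher and 11 lower). The lowest adjusted p among the enzymes was 0.121, and 7 of 36 had an unadjusted p under 0.05, beside 2183 of 13306 genes. DESeq2 called none of the 36 either. With the replicate number as a block, HK2, DLAT and PC were called higher, beside 675 of 13306 genes. The 5 genes of pyruvate entry all had positive values, with a median log2 fold change of 0.21, beside 0.03 for glycolysis, -0.06 for the citrate cycle and 0.01 for all genes. DLAT, the acetyltransferase core of pyruvate dehydrogenase, had 84.9 and 96.6 CPM with the inhibitors and 70.5 and 74.5 CPM in the inhibitor control (0.32 ± 0.08). PC, pyruvate carboxylase, had 32.2 and 44.4 CPM with the inhibitors and 24.7 and 28.9 CPM in the control (0.50 ± 0.15). Neither gene overlapped between the groups, and in both the second inhibitor library was the higher. HK1, HK2, GAPDH, PGK1, PGAM1, LDHA, PDHB, CS, IDH2, IDH3A, DLST and PGD did not overlap either, some at changes near 0. An exact permutation test of 2 against 2 libraries gives such separation p = 0.333 (two-sided). The share over all genes was not computed, so non-overlap alone does not mark a change. PDHB stood at 0.21 ± 0.07, PDHA1 at 0.16 ± 0.08 and DLD at 0.03 ± 0.06.

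HK2 had 48.5 and 58.2 CPM with the inhibitors and 38.2 and 41.9 CPM in their control, without overlap (0.41 ± 0.11, adjusted p = 0.135). LDHA, the lactate dehydrogenase subunit of glycolytic tissues, had 823 and 826 CPM with the inhibitors and 695 and 742 CPM in the control (0.20 ± 0.07, adjusted p = 0.2). IDH2 had 116 and 98.8 CPM with the inhibitors and 149.6 and 119.5 CPM in the control (-0.32 ± 0.11, adjusted p = 0.195), both lower than both controls. PFKP, called with shNBD1, overlapped here, with 428 and 496 CPM with the inhibitors and 376 and 499 CPM in the control. IDH1 overlapped as well, at 153 and 109 CPM with the inhibitors and 159 and 134 CPM in the control (-0.16 ± 0.13). FH had 82.7 and 73.6 CPM with the inhibitors and 85.6 and 81.5 CPM in the control (-0.09 ± 0.08), and its groups overlapped too.

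The other 25 enzymes of this arm had log2 fold changes between -0.19 (ALDOC) and 0.23 (TKT). TKT had 482 and 572 CPM with the inhibitors and 388 and 509.5 CPM in the control, and the first library was the lower in each group. PGK1 stood at 0.13 ± 0.07, with 876 and 805 CPM with the inhibitors and 763 and 778 CPM in the control. Abundant enzymes stood near 0, with GAPDH at -0.05 ± 0.06, PKM at 0.07 ± 0.07, ENO1 at 0.07 ± 0.09 and TPI1 at 0.03 ± 0.06. Of 82 genes in the neighbour lists none passed in edgeR, while 22 had an unadjusted p under 0.05 and SLC2A3 was among those that DESeq2 called. Among those of smallest p in the lists were SLC2A3 at 0.47 ± 0.11, SLC25A11, the oxoglutarate carrier, at -0.30 ± 0.07, ADM at 1.13 ± 0.30, PGLS at -0.28 ± 0.08, H6PD at -0.57 ± 0.18, DHTKD1 at -0.29 ± 0.08, EGLN3 at 0.31 ± 0.10, PDP1 at 0.40 ± 0.14, PDHX at 0.22 ± 0.09, LDHC at 0.52 ± 0.23 and PGM2 at 0.13 ± 0.07. Which enzymes passed in this arm turned on single libraries. Without inhibitor replicate 1, 3 enzymes were called higher (PC, HK2 and DLAT) and 3 lower (ALDOC, IDH2 and IDH1), beside 930 of 13548 genes. Without inhibitor control replicate 2, TKT was called higher and IDH2 lower, beside 639 of 13537 genes.

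Ratios of counts in this arm gave the same picture for hexokinase. The HK2 to HK1 ratio was 0.257 and 0.305 with the inhibitors, against 0.197 and 0.205 in their control, without overlap. The LDHB to LDHA ratio was 1.25 and 1.17 with the inhibitors and 1.42 and 1.3 in the control, also without overlap. At the entry of pyruvate, the PC to PDHA1 ratio was 0.202 and 0.235 with the inhibitors and 0.163 and 0.181 in the control. Within the pyruvate dehydrogenase complex, the DLAT to DLD ratio was 0.477 and 0.57 with the inhibitors and 0.409 and 0.446 in the control. The ratios PFKP to PFKM, IDH2 to IDH1, SUCLG2 to SUCLG1 and MDH2 to MDH1 overlapped between the groups of this arm. The share of overlap among other gene pairs was not computed.

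In the inhibitor arm the replicates of most enzymes differed in the same direction in both groups. Replicate 2 minus replicate 1 on the log2 CPM scale had a Pearson correlation of 0.787 between inhibitor and inhibitor control libraries over the 36 enzymes, with the same sign in 26, and of 0.188 in the shRNA arm, with the same sign in 18. Over all genes tested the correlation was 0.42 in the inhibitor arm and 0.0152 in the shRNA arm, and the share of equal signs was not computed. Enzymes are not independent points, and each difference shares a pair of libraries with all the others, so this is a description. PC, TKT, PFKP and ENO1 were higher in the second library of each inhibitor-arm group, and IDH1, SUCLG2, ALDOC and IDH2 lower.

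**Figure D4:**
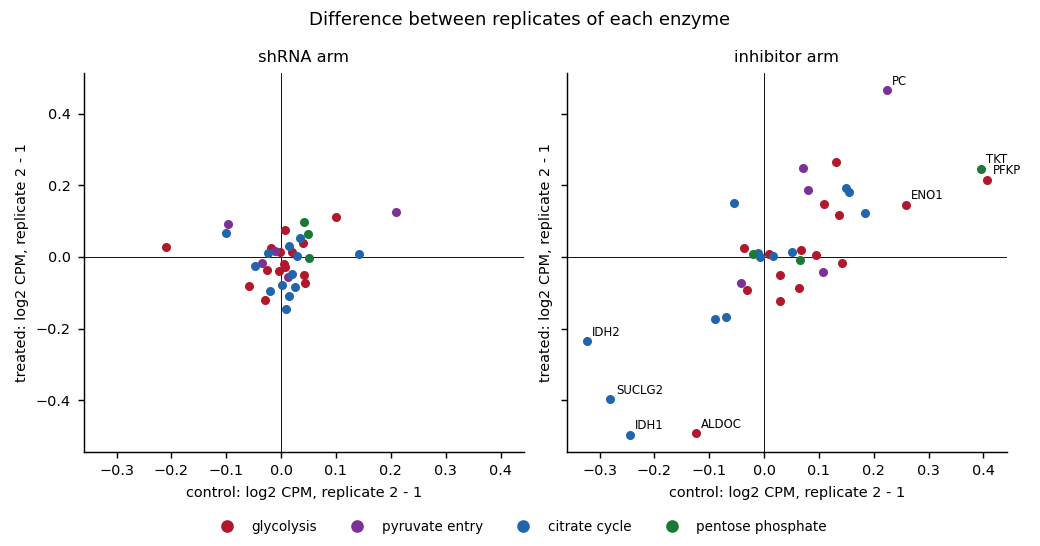
Replicate 2 minus replicate 1 in log2 CPM for each of 36 enzymes, in the treated group (y axis) against its control group (x axis), for the shRNA arm (left) and the inhibitor arm (right), colours by pathway. In the inhibitor arm the points run upward (r = 0.787), with IDH1, SUCLG2 and IDH2 at the low end and PFKP, TKT and PC at the high end.

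The effects of shNBD1 and of the inhibitors were set against each other by the difference between them. IDH1 and FH passed, both with a lower effect of shNBD1, so 2 of 36 enzymes were called, against 7.44% of all genes (3.48% higher and 3.96% lower). The difference was -0.72 ± 0.19 for IDH1 (adjusted p = 0.0465) and -0.47 ± 0.11 for FH (adjusted p = 0.0312), on the log2 scale. The effect on IDH1 was -0.88 with shNBD1 and -0.16 with the inhibitors. The effect on FH was -0.57 with shNBD1 and -0.09 with the inhibitors. Both calls were lost in each fit without a library of the shRNA arm and in those without inhibitor replicate 1 or inhibitor control replicate 2, where the adjusted p reached 0.199 for IDH1 and 0.182 for FH, and IDH1 also lost its call under upper-quartile scaling. In HK2 the difference was 0.38 ± 0.15 (adjusted p = 0.151) and in PFKP 0.47 ± 0.16 (adjusted p = 0.107), so neither was shown to respond differently to the treatments. DLAT missed the threshold at -0.41 ± 0.11 (adjusted p = 0.0534), as did IDH2 at 0.54 ± 0.15 (adjusted p = 0.0574) and LDHA at -0.32 ± 0.10 (adjusted p = 0.0661).

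The shRNA control and the inhibitor control differed in 13 of 36 enzymes, 5 higher and 8 lower in the shRNA control, against 27.1% of all genes (13.5% higher and 13.6% lower). This comparison reports how far the baselines of the arms lay apart, and the control agent and any batch of the arm cannot be told apart in it. It shares its libraries with the comparisons above. In glycolysis TPI1 had 1039 and 1037 CPM in the shRNA control and 1423 and 1451 CPM in the inhibitor control, a log2 difference of -0.47 ± 0.06 (adjusted p = 0.000485). PGK1 had 632 and 651 CPM in the shRNA control and 763 and 778 CPM in the inhibitor control (-0.26 ± 0.07). ENO1 and ENO2 went the other way. ENO1 had 3836 and 3849 CPM in the shRNA control and 2842 and 3399 CPM in the inhibitor control (0.30 ± 0.09), and ENO2 had 149 and 149 CPM in the shRNA control and 117 and 122 CPM in the inhibitor control (0.32 ± 0.07). Called enzymes of the path therefore differed in sign between the controls, with TPI1 and PGK1 lower and the later enolases higher in the shRNA control.

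HK2 stood at 32.3 and 27.9 CPM in the shRNA control and 38.2 and 41.9 CPM in the inhibitor control (-0.41 ± 0.11), and its levels with shNBD1, 51.8 and 52.7 CPM, lay between those of the inhibitor libraries. ALDOC was lower in the shRNA control, at 20.4 and 21.9 CPM against 30.1 and 27.6 CPM (-0.45 ± 0.14), and so was TKT, at 334 and 344 CPM against 388 and 509.5 CPM (-0.40 ± 0.12). None of these genes overlapped between the controls, but TKT differed widely between the inhibitor control libraries. GAPDH, at 0.02 ± 0.06, did not overlap either. The share over all genes was not computed, so non-overlap alone does not mark a difference.

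In mitochondria and their branches, MDH1 had 762 and 776 CPM in the shRNA control and 569 and 535 CPM in the inhibitor control, and was the enzyme with the largest positive difference (0.48 ± 0.07, adjusted p = 0.00158). MDH2 stood at -0.07 ± 0.08 and did not pass. IDH2 had 92.9 and 93.8 CPM in the shRNA control and 149.6 and 119.5 CPM in the inhibitor control (-0.53 ± 0.11). IDH1 stood at 0.12 ± 0.13 and did not pass. The IDH2 to IDH1 ratio was 0.584 and 0.581 in the shRNA control and 0.939 and 0.889 in the inhibitor control, and the MDH2 to MDH1 ratio was 0.461 and 0.438 in the shRNA control and 0.597 and 0.721 in the inhibitor control. Neither ratio overlapped between the controls, and the share among other gene pairs was not computed. PC had 17.1 and 19.7 CPM in the shRNA control and 24.7 and 28.9 CPM in the inhibitor control (-0.55 ± 0.16). SUCLG1 was lower in the shRNA control, at 83.9 and 84.5 CPM against 108 and 109 CPM (-0.37 ± 0.07). Higher in the shRNA control were PDHA1, at 191 and 193 CPM against 152 and 159 CPM (0.31 ± 0.08), and DLD, at 210.0 and 205 CPM against 172 and 167 CPM (0.29 ± 0.06). Across the other 23 enzymes, none of which passed, the differences ran from -0.19 (PDHB) to 0.25 (SUCLG2). TPI1 and MDH1 kept their calls in all 16 alternatives. Without shRNA control replicate 1, and likewise without its replicate 2, these 2 were the only enzymes called.

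**Figure D5:**
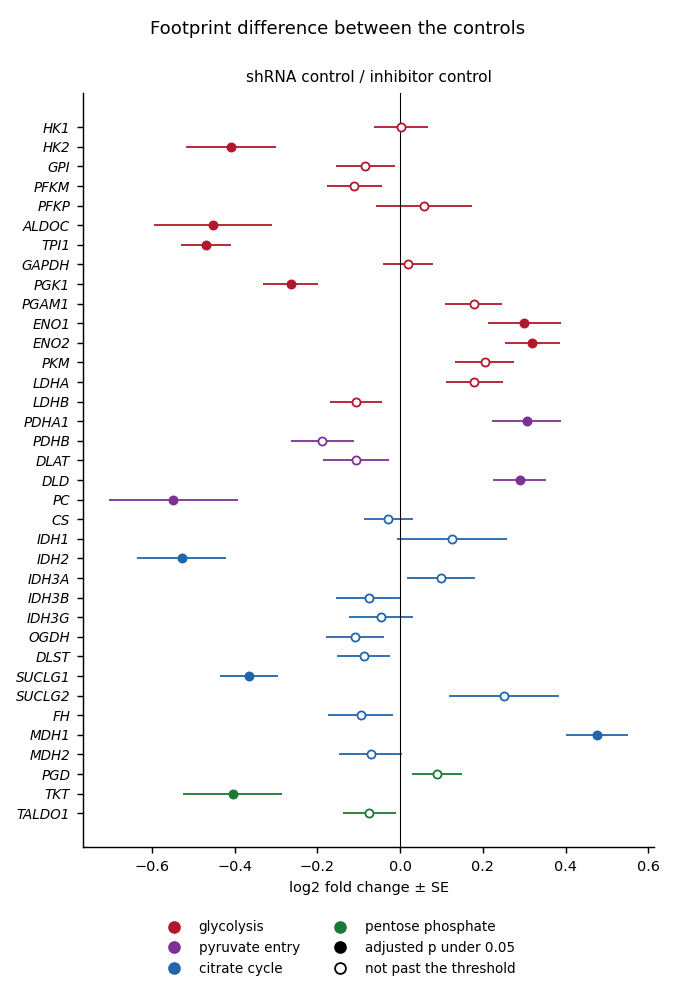
Log2 fold change with its SE of footprints of 36 enzymes (rows, in pathway order) for shRNA control over inhibitor control, 2 libraries per group, colours by pathway and filled points past an adjusted p of 0.05. TPI1, PC and IDH2 lie farthest to the left among the 8 lower in the shRNA control, and MDH1 farthest to the right among the 5 higher in it.

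Of the 82 genes in the neighbour lists 29 differed between the controls, beside the 27.1% of all genes. Of 23 citrate cycle neighbours 6 were higher and 5 lower in the shRNA control, with GLUD1, the glutamate dehydrogenase, at 0.47 ± 0.06, ACO1, the cytosolic aconitase, at -0.59 ± 0.09 and MPC1, of the mitochondrial pyruvate carrier, at -0.46 ± 0.11. Of 12 carriers 2 were higher and 2 lower. SLC16A3 had 1.53 and 1.56 CPM in the shRNA control and 4.65 and 4.49 CPM in the inhibitor control (-1.56 ± 0.20). SLC16A7, another monocarboxylate carrier, stood at -0.86 ± 0.14, SLC25A1, the citrate carrier, at 0.50 ± 0.12 and SLC2A3 at 0.46 ± 0.11. Of 9 pyruvate dehydrogenase neighbours PDK1 was higher at 0.57 ± 0.12, and PDK2 and the phosphatase PDP2 were lower at -0.37 ± 0.08 and -0.41 ± 0.10. Of 14 glycolysis neighbours 3 were higher and 2 lower, among them BPGM at 0.40 ± 0.11 and GPD2 at 0.31 ± 0.07, with ENO3 and PGAM2, muscle isozymes at under 4 CPM in every library, at -1.22 ± 0.30 and -1.12 ± 0.32. Of 11 pentose phosphate neighbours SHPK was higher at 0.27 ± 0.09 and H6PD lower at -0.52 ± 0.17. Of 13 hypoxia-induced genes 4 were higher and none lower, namely INSIG2 at 0.53 ± 0.16, P4HA1 at 0.38 ± 0.09, DDIT4 at 0.34 ± 0.10 and KDM3A at 0.30 ± 0.07.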

How the data were processed

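The 8 tables deposited by the authors hold raw integer read counts for each feature, with 1 transcript per feature and features without reads left out (taken as 0). The submitters' processing notes name cutadapt, Bowtie and GRCh38, without roles or versions. The counting tool and how multiply matching reads were assigned are likewise not given in the sources used here. Total counts ran from 11218980 to 19854218 per library. The 18037 features were summed to 17179 symbols and fitted with edgeR 4.0.16 (limma 3.58.1, R 4.3.3): filterByExpr with minimum count 10 and total 15, TMM scaling, a quasi-likelihood model of the 4 groups fitted to the 8 libraries together (residual degrees of freedom 4), and Benjamini-Hochberg adjustment over 13306 genes at 0.05. The common biological coefficient of variation was 0.0753. DESeq2 1.42.0, other scalings and filters, the replicate number as a term, subsets of libraries and the table without its 2 most abundant features were the alternatives, 16 per comparison (15 for the difference). Fitted values carry the SE implied by the test. The procedure was tested on simulated counts with planted changes. False calls were 13 of 150 for the shNBD1 comparison and 12 of 153 for the inhibitors, above the share set by the 0.05 threshold. At 1.3-fold it picked up 10% of planted genes for shNBD1 and 18% for the inhibitors. At 1.5-fold it picked up 74% and 72%, and at 2-fold 90% and 92%. The simulation gave each gene the same baseline and the same spread in all 4 groups, and planted no change in genes of low count. In the data the spread was wider in the inhibitor arm and the controls differed. The simulated shares therefore need not hold for either comparison. DLD and IDH3G, called with shNBD1, changed by less than 1.3-fold, at 1.16-fold and 1.22-fold.

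The enzymes and lists were chosen with earlier results of these data known. All 36 enzymes are named; those called are given for each library of the comparison that called them, and each neighbour list gives up to 4 called genes of largest change, or 2 of smallest p, except for a few genes not reported here. The design planned isozyme levels per coding length; no coding lengths were given, so count ratios replaced them. Same-numbered replicates share only a number in the labels.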

Additional observations from a re-analysis of the deposited data

Results flagged for a closer look

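The difference between the effect of shNBD1 and that of the inhibitors passed the threshold in edgeR's quasi-likelihood test for 13 of the enzymes and neighbour genes, and the values are log2 differences. IDH1 stood at -0.72 and FH at -0.47, the only enzymes among the 36. Of the pentose phosphate neighbours, TIGAR stood at -0.68, SHPK at -0.51, RPIA at 0.56 and PGLS at 0.54, where PGLS had an effect of 0.26 with shNBD1 and -0.28 with the inhibitors. SLC2A3 had the widest difference of the 13, at -1.14 (adjusted p = 0.00248). Its effect was -0.67 with shNBD1 and 0.47 with the inhibitors, and the libraries of each treatment lay on opposite sides of their controls. GPD2 stood at -0.46, ADPGK at 0.46 and P4HA2 at 0.34. Of the citrate cycle neighbours, PCK2 stood at 0.61, SDHAF2 at -0.63 and SDHC, a membrane subunit of succinate dehydrogenase, at 0.37. SLC2A3 kept its call in all 15 alternatives. The other calls were less stable: of the 11 neighbour genes, 9 or 10 lost theirs in each fit without a library of the shRNA arm, with SHPK and SDHAF2 called in 7 of 15 alternatives, RPIA and ADPGK in 8 and P4HA2 in 6. No group had enough libraries to look for single libraries that stand apart.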

How the results depend on the processing

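Counts depended on single libraries, since each group holds 2. Leaving out each of the 8 libraries in turn gave between 3 and 11 called enzymes with shNBD1 (532 to 3033 of all genes), 0 to 6 with the inhibitors (0 to 930), 0 to 4 for the difference (187 to 1135) and 2 to 14 between the controls (1077 to 4319). HK2, IDH1 and FH were the 3 called in every fit without a library of the shRNA comparison. On the 4 libraries of a comparison alone, 19 enzymes and 5314 genes were called with shNBD1, and 0 of 13263 genes with the inhibitors in edgeR, where 1164 had an unadjusted p under 0.05. With the replicate number as a block, 11 enzymes were called with shNBD1 (3408 of 13306 genes) and 8 for the difference (1868 genes). With the inhibitors the block gave 3, all higher (HK2, DLAT and PC), beside 675 genes. Deviations of same-numbered libraries correlated at 0.0152 over all genes in the shRNA arm and 0.42 in the inhibitor arm, 2 pairs each. The fit of the 4 groups did not take the numbers as pairs, as the labels state no pairing. Whether libraries of the inhibitor arm were paired was not tested. For the difference, 1 enzyme was called under upper-quartile scaling (968 of 13306 genes) and 4 with no filter on low counts (1131 of 17179). Over all genes, DESeq2 called 118 with the inhibitors and 2389 between the controls, and 179 were called with the inhibitors and no filter. The cause was not tested, beyond the smaller number of libraries. No called value of an enzyme or neighbour gene changed sign; 130 values that passed neither way did, 65 of them of the enzymes. At 2 libraries per group a small change cannot be told from the spread, so a value that missed the threshold does not show that levels were equal.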

Other observations

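Some isozymes known from other tissues were at or near 0 in these libraries. HK3, HKDC1, PKLR and PFKFB1 did not pass the filter on low counts, nor did TKTL2 and the testis-specific PDHA2. PGK2, the testis phosphoglycerate kinase, passed it at between 0.737 and 1.99 CPM. LDHC, the testis lactate dehydrogenase, had 1.85 and 1.77 CPM with shNBD1 and 2.52 and 3.77 CPM in the shRNA control, against 4.63 and 5.01 CPM with the inhibitors and 3.83 and 2.86 CPM in the inhibitor control, and passed in no comparison.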
